A study of Mus musculus with 16 samples.

Results

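Oxidative phosphorylation genes were described in macrophages sorted from mouse pancreatic tumors and from normal mouse pancreas. They were chosen by symbol: every gene that the array's files name with Nduf, Uqcr, Atp5, Sdha, Sdhb, Sdhc or Sdhd at the start, or with Cox followed by a digit from 4 to 8. The rule gave 96 of the 31044 genes on the array, after 1 pseudogene was left out. By current symbols 83 encode subunits and 11 encode assembly factors. Dmac2 and Dmac2l carried older Atp5 names and are not subunits. The probes of 93 of the genes passed the filter on dim signal, a filter that used no group labels. Cox7b2, Cox8c and Sdhaf3 did not pass, being above background on 0, 0 and 1 of the 16 arrays. Counted with assembly factors, Dmac2 and Dmac2l, the 93 genes were 43 of complex I, 7 of complex II, 8 of complex III, 18 of complex IV and 17 of complex V.

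The 16 arrays form 4 groups: tumor YFP+ (5 arrays), tumor YFP- (5), normal pancreas YFP+ (3) and normal pancreas YFP- (3). All mice were female, on the C57/B6 background and 8 to 10 weeks old, with the genotype labelled as not provided. The series text names wild-type, KPC and FLT3-CRE/LSL-YFP mice, and the treatment text speaks of implanted tumors, so the tumor model of each sample is unclear. In the reporter mice the FLT3 promoter drives the Cre, and YFP marks cells with a history of its activity. Titles carry a 5-digit number, read here as a mouse number, which the labels do not state. There are 5 such numbers for tumor and 3 for normal pancreas, each with 1 YFP+ and 1 YFP- sample. P-values measure the spread between these samples, and the labels do not say that the numbers are separate animals or whether animals were pooled. Values of several arrays are given in the order of these numbers: 23547, 23548, 23550, 23551 and 23677 for tumor, and 23912, 23916 and 23917 for normal pancreas.

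Mitochondria pass electrons from NADH (complex I) and succinate (complex II) through complex III to complex IV, where oxygen is reduced. Complexes I, III and IV pump protons, and complex V, the ATP synthase, uses the gradient to make ATP. Complex II is the one complex that is also an enzyme of the tricarboxylic acid cycle. In macrophages, alternative activation is known for reliance on this chain, and inflammatory activation for a turn to glycolysis. The genes measured here lie in the nucleus. The subunits encoded in mitochondrial DNA were not analysed here.

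Values are log2 signals relative to the 75th percentile of the same array, called the relative log2 signal below, and a difference of 1 is a doubling. The percent of spots above background ran from 64.9 to 75.4 per array, and no spot was saturated. All 12 markers of macrophages on a list were above background on every array, and the list's mean ran from 3.78 to 4.76 over the 4 groups. Pancreatic acinar markers stood apart between the tissues. The mean of 12 of them ran from 4.17 to 5.80 in the 6 normal arrays. It ran from -1.63 to -0.44 in tumor YFP- and from -2.48 to -1.92 in tumor YFP+. All 12 differences were below 0 in both populations. By limma's test, with Benjamini-Hochberg adjusted p under 0.05, 11 of the 12 were called lower in tumor in each population. Markers of the other lists are counted as higher or lower by the same test. Of all genes, it called 6.02% higher and 6.06% lower in YFP+ cells, and 8.02% and 7.73% in YFP- cells. Ductal markers (9 genes) ran from -2.82 to -2.02 in normal arrays, -1.08 to -0.18 in tumor YFP+ and 0.66 to 0.99 in tumor YFP-. Fibroblast markers (10 genes) ran from -3.12 to -1.65 in YFP+ arrays of both tissues, -1.92 to 0.70 in normal YFP- and 0.65 to 1.31 in tumor YFP-. Neutrophil markers (6 genes) ran from -3.42 to 0.92 in normal YFP+ and 0.52 to 1.17 in tumor YFP+, and from -2.81 to -2.03 in normal YFP- and 1.07 to 2.38 in tumor YFP-. Mast cell markers (5 genes) ran from -4.30 to -0.78 in the other groups and from -0.04 to 2.81 in tumor YFP-, where all 5 were higher than in normal YFP-. Plasma and B cell markers (9 genes) ran from -2.80 to -1.2 in normal YFP+ and 0.12 to 1.55 in tumor YFP+, where 6 were higher, and from -3.13 to -1.38 in normal YFP- and -1.46 to 0.13 in tumor YFP-, where 5 were higher and 1 lower. Dendritic cell markers (7 genes) ran from -1.85 to -1.37 in normal YFP+ and -0.90 to 0.63 in tumor YFP+, and from -3.23 to -1.16 in normal YFP- and -1.58 to -0.12 in tumor YFP-; 2 were higher in each population and 1 was lower in YFP+ cells. The part of these other cells in the results was not tested. In such bulk samples, fewer cells of a type and less RNA per cell cannot be told apart.

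The promoters of 4 of the genes are shown because the genes were higher in tumor macrophages and because most of the 4 hold a motif known from genes of this chain. NRF1 and the ETS factor GABPA are background regulators of nuclear genes for mitochondrial proteins. Each line gives 160 bases ending at the base before the start site, 5′ to 3′ on the gene's strand, from RefSeq on GRCm38.p6. Capitals mark an exact match, on either strand, to the NRF1 letters (GCGCA, any base, GCGC) or to CCGGAAG (ETS).
Ndufs5, chr4:123718187-123718346, minus strand: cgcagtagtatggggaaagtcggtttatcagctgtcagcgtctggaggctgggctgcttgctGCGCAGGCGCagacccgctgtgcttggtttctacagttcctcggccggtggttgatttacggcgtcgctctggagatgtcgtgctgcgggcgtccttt
Ndufa8, chr2:36049339-36049498, minus strand: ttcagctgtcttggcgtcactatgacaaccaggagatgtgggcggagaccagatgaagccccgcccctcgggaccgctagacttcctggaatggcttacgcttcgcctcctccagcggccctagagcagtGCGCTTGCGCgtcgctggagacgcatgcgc
Sdhaf2, chr19:10525210-10525369, minus strand: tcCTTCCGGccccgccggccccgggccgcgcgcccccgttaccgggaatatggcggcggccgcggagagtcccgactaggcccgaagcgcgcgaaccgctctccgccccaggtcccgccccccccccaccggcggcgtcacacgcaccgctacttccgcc
Cox5a, chr9:57521072-57521231, plus strand: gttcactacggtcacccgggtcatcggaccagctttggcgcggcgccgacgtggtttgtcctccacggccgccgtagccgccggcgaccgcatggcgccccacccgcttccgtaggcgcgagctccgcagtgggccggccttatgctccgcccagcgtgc
Counted from the start site, with -1 as the base before it, the capitals begin at -98 in Ndufs5 and -30 in Ndufa8, both for the NRF1 letters, and at -158 in Sdhaf2 for the ETS letters. Cox5a holds neither. Promoter windows of 300 bases (250 before the start site to 50 after) were found for 78 of the 93 genes, 84 windows in all. The NRF1 letters lay in 21 of the 84 windows (25%), against 4.6% of all 32851 windows in the table. The ETS letters lay in 19 (22.6%, against 8.86%). AAGATGGCG, the core of a YY1 motif, lay in 9 (10.7%, against 1.4%), and TCAAGGTCA, bound by estrogen-related receptors, in 2 (2.38%, against 0.423%). Matches can overlap, since CCGGAAG ends and AAGATGGCG starts with AAG, and AAGATGGCG ends with the GCG that starts the NRF1 letters. Of the 34 windows of genes that were higher in tumor YFP- cells, 6 (17.6%) held the NRF1 letters and 6 the ETS letters. A match is a description of letters and shows no binding.

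Differences between tumor and normal pancreas were small for genes of the chain, and most lay above 0. The difference was above 0 in 85 of 93 genes in YFP+ cells and in 82 of 93 in YFP- cells. Of all 24307 genes tested, it was above 0 in 46.1% and 40.5%. The median difference was 0.32 in YFP+ and 0.43 in YFP- cells, where the median of all genes was -0.04 and -0.16. Scaling moved these sizes. With quantile normalization the medians were 0.19 and 0.31 (all genes -0.02 and -0.07), and with array median scaling 0.45 and 0.62 (all genes 0.09 and 0.04). They were above 0 under every alternative tried.

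Per array, the median over the 93 genes was 2.46, 2.83, 2.63, 2.58 and 2.81 in tumor YFP+. In tumor YFP- it was 2.55, 2.72, 2.76, 2.65 and 2.56. In normal YFP+ it was 2.07, 2.21 and 2.30, and in normal YFP- 1.91, 2.34 and 2.29. All 10 tumor arrays were above all 6 normal arrays. The arrays lay on 4 slides of 4 arrays, and each slide is also 1 scan. Within slides, each tissue difference compared 1 tumor array with 1 normal array. The median difference in YFP+ cells was 0.40, 0.50 and 0.30 on slides 1, 2 and 3. In YFP- cells it was 0.45, 0.42 and 0.34 on slides 2, 3 and 4.

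**Figure D1:**
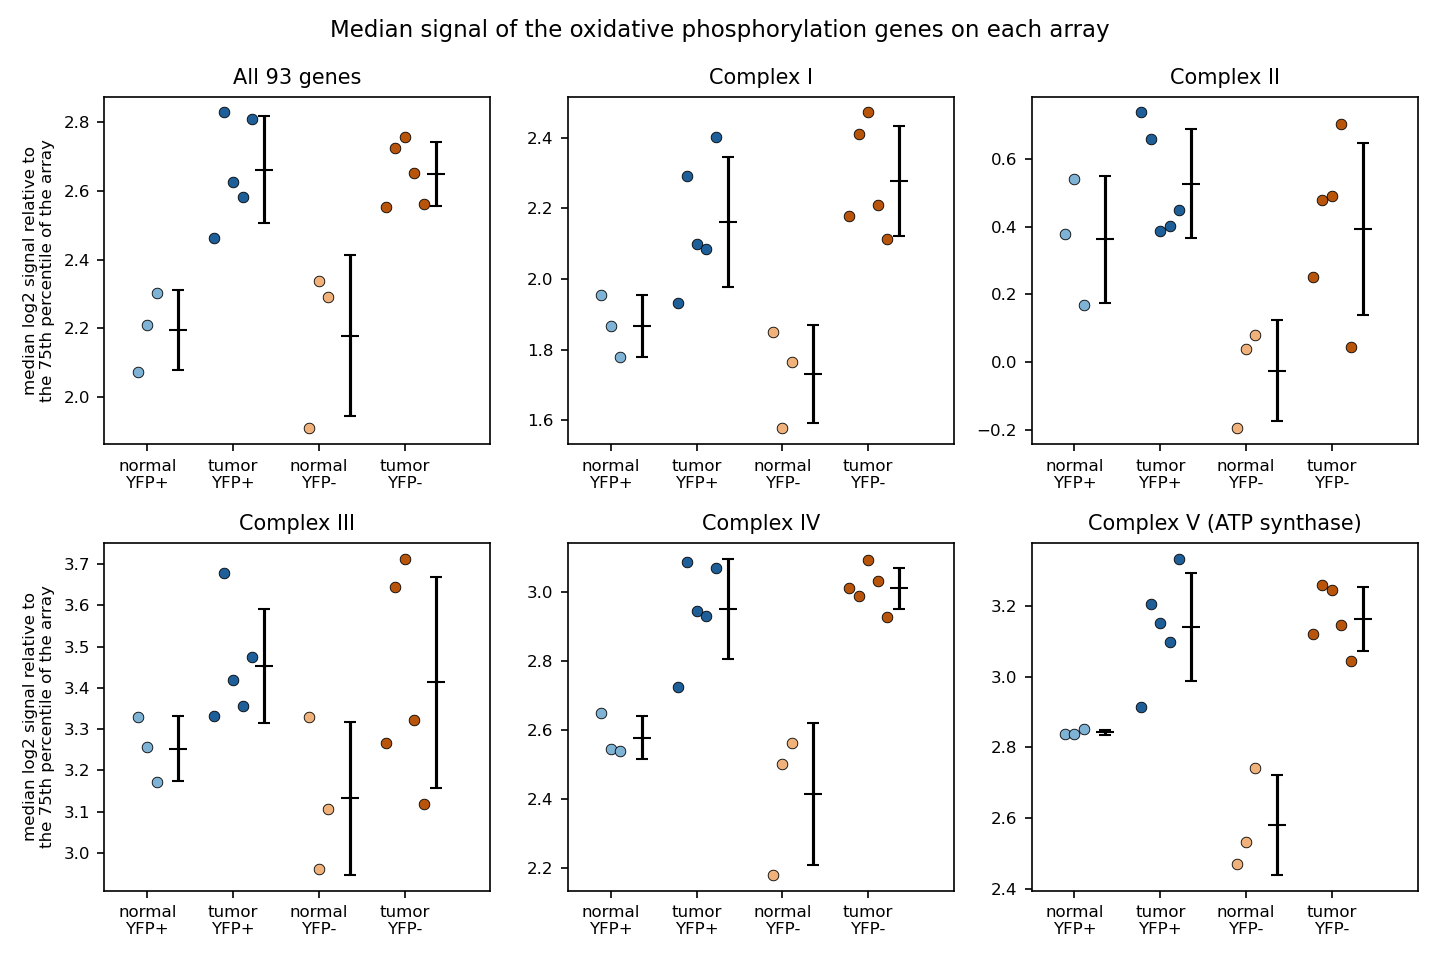
Median relative log2 signal of the genes on each array (y axis, log2 units) by group (x axis), for all 93 genes and for each complex, assembly factors, Dmac2 and Dmac2l included. Each point is 1 array, and the bar beside the points is the mean with its SD. Over all genes the 10 tumor arrays sit between 2.46 and 2.83 and the 6 normal arrays between 1.91 and 2.34, while for complex II the groups overlap in both populations.

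The medians did not stand apart in every complex. These sets are not subunits alone. Complex I holds 7 assembly factors, complex II holds 3, and complex V holds Dmac2 and Dmac2l. On several arrays the complex II median is the value of the assembly factor Sdhaf1, as in tumor YFP+ of 23547 (0.74), 23548 (0.66) and 23550 (0.39). Complex V read 2.91 to 3.33 in tumor YFP+ against 2.84 to 2.85 in normal YFP+, and 3.04 to 3.26 in tumor YFP- against 2.47 to 2.74 in normal YFP-. Complex IV read 2.73 to 3.09 against 2.54 to 2.65 in YFP+, and 2.93 to 3.09 against 2.18 to 2.56 in YFP-. The complex II median read 0.39 to 0.74 against 0.17 to 0.54 in YFP+ and 0.04 to 0.70 against -0.19 to 0.08 in YFP-, so its groups overlapped in both populations. For complex III the lowest tumor YFP+ array (3.332) was barely above the highest normal YFP+ array (3.329). Its YFP- groups overlapped (3.12 to 3.71 against 2.96 to 3.33). Complex I read 1.93 to 2.40 against 1.78 to 1.95 in YFP+, where 1 pair of arrays crossed, and 2.11 to 2.47 against 1.58 to 1.85 in YFP-, with no overlap.

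By limma's test with Benjamini-Hochberg adjustment over all genes, at a threshold of 0.05, 11 genes of the chain were higher in tumor YFP+ cells and 0 were lower. That is 11.8% of the 93, where 6.02% of all genes were called higher and 6.06% lower (12.1% in either direction). In YFP- cells 34 were higher and 0 lower, 36.6% of the 93, where 8.02% of all genes were called higher and 7.73% lower (15.8% in either direction). At an unadjusted p under 0.05, 38 genes of the chain were higher and 1 lower in YFP+ cells (23.9% of all genes in either direction), and 48 higher and 1 lower in YFP- cells (30.2%), the lower one being Cox6b2 in both. All 11 of the first count were among the 34 (over all genes 4.49% were higher in both populations). They are Ndufa1, Ndufc1, Ndufs5, Ndufv3, Sdhaf2, Uqcrq, Cox5a, Cox5b, Cox8a, Atp5d and Atp5g1. Without overlap between the groups, 40 genes were higher in YFP+ cells (10.1% of all genes were) and 44 in YFP- cells (9.77%). The gene that stood apart on the lower side was Ndufaf7 in YFP+ (11.8%) and Dmac2 in YFP- (9.85%), chosen after their values were seen. In both populations the median standard error of the difference was 0.17 for the 93 genes and 0.31 for all genes. The median signal of the 93 genes was also above that of all genes on every array. Genes with smaller errors can pass with smaller differences. The part of signal and error in these shares, and in those by complex below, was not tested.

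The counts moved more than the medians. In YFP+ cells the count was 4 with array median scaling, 2 with quantile normalization or the deposited normalized values, 23 with array weights (22 of them higher) and 6 when only the groups compared entered the fit. It was 8 without mouse 23547, 6 without 23548, 7 without 23550, 23551 or 23677, 4 without 23912, 3 without 23916 and 1 without 23917. No gene called in YFP+ cells kept its call under every setting. In YFP- cells the count was 22 with quantile normalization or normexp, 56 with array weights (55 of them higher) and 5 when only the groups compared entered. It was 22 without 23548, 19 without 23550, 17 without 23912, 11 without 23916 and 21 without 23917. It was 19 when the normal YFP- array of 23912 alone was left out.

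**Figure D2:**
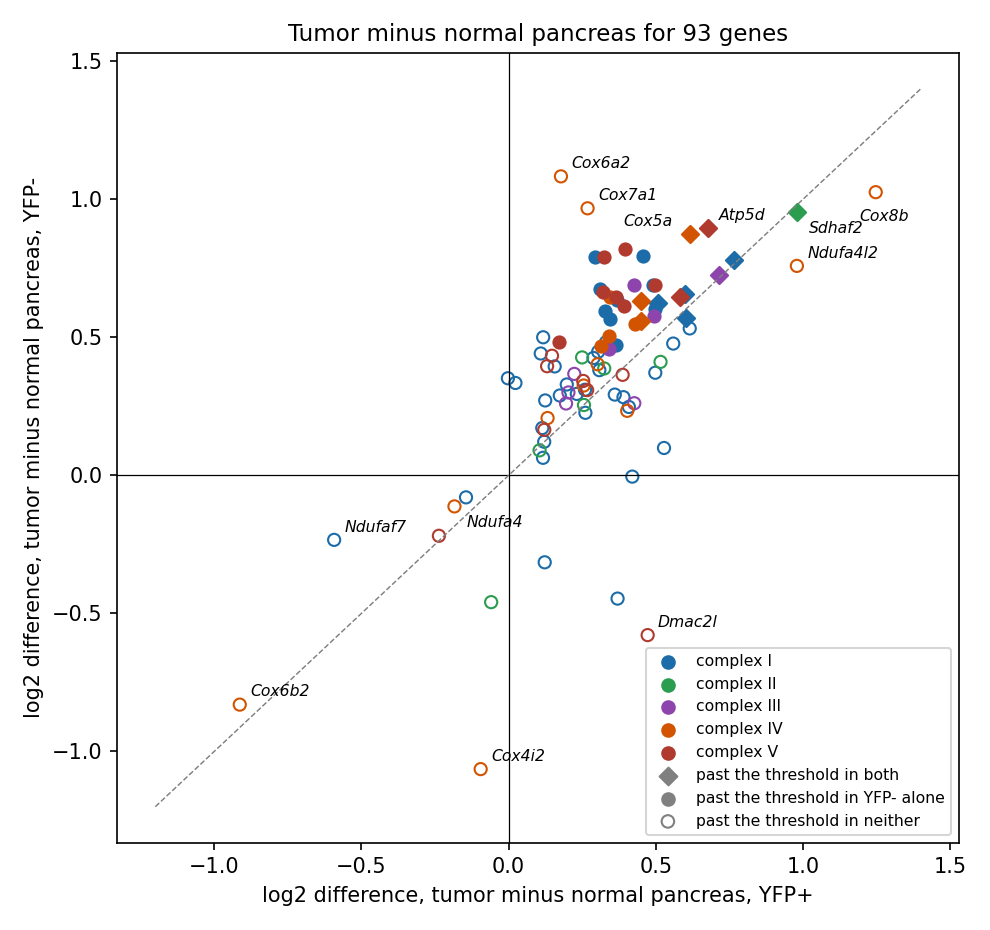
Log2 difference of tumor minus normal pancreas in YFP+ cells (x axis) and in YFP- cells (y axis), 1 symbol for each of the 93 genes, colored by complex, with the line of equal differences dashed. Diamonds are the 11 genes past the threshold in both populations, filled circles the 23 past it in YFP- cells alone, open circles the other genes, and most symbols lie above 0 on both axes.

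In complex I, the entry point for NADH, 4 of 43 genes were higher in YFP+ cells (9.3%, against 6.02% of all genes) and 13 in YFP- cells (30.2%, against 8.02%). The 4 were all accessory subunits, which surround the catalytic core. Ndufs5, of the membrane arm, read 1.18, 1.34, 1.32, 1.16 and 1.58 in tumor YFP+ and 0.65, 0.83 and 0.67 in normal YFP+. It read 1.24, 1.27, 1.54, 1.31 and 1.24 in tumor YFP- and 0.41, 0.81 and 0.77 in normal YFP-. No tumor array overlapped a normal array of the same population. The differences were 0.60 ± 0.15 (SE, limma adjusted p = 0.0169) and 0.66 ± 0.15 (adjusted p = 0.00839), or 1.52-fold and 1.58-fold. The array's file places this probe on chromosome 16 of build mm9, while RefSeq has the gene on chromosome 4. The file places the brightest probe of 10 of the genes on another chromosome than the gene's, and without them and 8 unplaced ones the medians of the other 75 genes were 0.32 and 0.41.

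Ndufa12, an accessory subunit of the matrix arm (probe at chr10:93683562-93683621, mm9), was higher in YFP- cells. It read 1.66, 1.62, 2.03, 1.56 and 1.53 in tumor YFP- and 0.74, 1.05 and 0.88 in normal YFP-, a difference of 0.79 ± 0.15 (adjusted p = 0.00231, 1.73-fold). In YFP+ cells it read 1.62, 1.74, 1.63, 1.49 and 1.84 in tumor and 1.17, 1.19 and 1.26 in normal pancreas. These groups did not overlap either, and the difference of 0.46 ± 0.15 missed the threshold (adjusted p = 0.0640). The difference between the populations was -0.34 ± 0.21 (adjusted p = 0.909), so no unequal change was shown.

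Ndufa1, an X-linked subunit of the membrane arm, differed by 0.60 in YFP+ and 0.57 in YFP- cells (adjusted p = 0.0309 and 0.0339). Ndufc1, also of the membrane arm, differed by 0.51 and 0.63 (adjusted p = 0.0389 and 0.0104). Ndufs4, an accessory subunit whose loss causes a mitochondrial disease, read 0.93, 1.18, 0.75, 1.15 and 0.53 in tumor YFP- and -0.0033, -0.07 and 0.42 in normal YFP-, with no overlap. Its difference was 0.79 ± 0.18 in YFP- (adjusted p = 0.00692) and 0.29 ± 0.18 in YFP+ cells (adjusted p = 0.359). Ndufa8 differed by 0.69 ± 0.16 in YFP- cells (adjusted p = 0.00887) and by 0.49 in YFP+ cells (adjusted p = 0.0614).

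Of the 7 core subunits of complex I encoded in the nucleus, which carry the flavin and the iron-sulfur clusters, 0 were past the threshold in YFP+ cells (2 at an unadjusted p under 0.05) and 2 in YFP- cells. These were Ndufv1, which binds the flavin (0.63 ± 0.18, adjusted p = 0.0251), and Ndufs3 (0.57 ± 0.16, adjusted p = 0.0252). Of all genes, 12.1% passed in YFP+ and 15.8% in YFP- cells, in either direction. Ndufs7, near the ubiquinone site, differed by 0.12 and 0.06 (adjusted p = 0.720 and 0.794), and its sign turned with quantile normalization to -0.16 and -0.09. Its values overlapped, at 4.29 to 4.53 in tumor YFP+ and 4.24 to 4.40 in normal YFP+. All 7 differences were above 0 in both populations as scaled here, and with quantile normalization Ndufv2 also turned in YFP+ cells, to -0.07.

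Ndufv3 needs its probes given apart. Its brightest probe, at chr17:31668209-31668268 (mm9), read 3.76, 4.15, 3.70, 3.88 and 4.10 in tumor YFP+ and 2.98, 3.23 and 3.26 in normal YFP+. It differed by 0.76 ± 0.19 in YFP+ and 0.78 ± 0.19 in YFP- cells (adjusted p = 0.0145 and 0.0110). A dimmer probe at chr17:31665148-31665207 differed by 0.14 and 0.38. The last, at chr17:31663758-31663817, went the other way, by -1.03 and -1.42. In a fit of the 30347 probes that passed the filter and had no missing value, this last probe was past the threshold in YFP- cells (adjusted p = 0.0286) and not in YFP+ cells (adjusted p = 0.129). With the mean of all probes the gene's difference was -0.04 and -0.09. The call for Ndufv3 therefore holds for 1 probe. Of 23 genes of the chain with several kept probes, 19 had probes of 1 sign in YFP+ and 21 in YFP- cells. Ndufaf4, Ndufb4 and Cox7c were the other exceptions in YFP+, and Ndufb11 in YFP-. In the fit of single probes a dimmer probe was higher where the brightest did not pass for Atp5pb and Uqcr10 in YFP+ cells. The same held for Atp5g2, Atp5l and Ndufb6 in YFP- cells. Besides Ndufv3, the brightest probe passed and a dimmer one did not for Uqcrq in YFP+ cells (adjusted p = 0.0200 and 0.0678). In YFP- cells this held for Atp5c1 (0.0296 and 0.0924), Ndufb5 (0.0109 and 0.426) and 1 dimmer probe of Uqcr10 (0.0302 and 0.211). These genes were named after their values were seen.

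Complex II, succinate dehydrogenase, had 1 of 7 genes past the threshold in each population (14.3%). Of all genes, 12.1% passed in YFP+ and 15.8% in YFP- cells in either direction, and 6.02% and 8.02% were higher. With 7 genes, 1 call makes up the share in complex II. It lies near the share of all genes called in either direction and above the share called higher. The gene that passed is no subunit. It is Sdhaf2, the factor that helps attach the flavin to Sdha. It was well above background on all 16 arrays. The tumor YFP+ arrays gave -1.96, -1.40, -2.02, -2.32 and -1.97 and the normal YFP+ arrays -2.55, -3.47 and -2.73. For YFP- cells the tumor arrays gave -1.96, -2.13, -1.99, -3.12 and -2.62 and the normal arrays -3.21, -3.69 and -3.05. The YFP+ groups stood apart and the YFP- groups overlapped. The differences were 0.98 ± 0.30 (adjusted p = 0.0480) and 0.95 ± 0.30 (adjusted p = 0.0449). The YFP+ call held in 8 of 21 settings tried and the YFP- call in 10. The 4 subunits did not pass, and 1 of them in each population had an unadjusted p under 0.05. Sdha, which oxidizes succinate, differed by 0.25 and 0.43 (adjusted p = 0.570 and 0.206), Sdhb by 0.26 and 0.25, Sdhc by 0.52 and 0.41, and Sdhd by 0.32 and 0.39.

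Complex III had 1 of 8 genes higher in YFP+ (12.5%, against 6.02% of all genes) and 4 in YFP- cells (50%, against 8.02%). All 8 differences were above 0 in both populations. Uqcrq, a small subunit of the membrane part (probe at chr11:53242451-53242510, mm9), read 2.92, 3.13, 3.24, 3.03 and 3.42 in tumor YFP+ and 2.43, 2.48 and 2.39 in normal YFP+. In YFP- cells it read 3.10, 2.96, 3.26, 3.09 and 2.75 in tumor and 1.85, 2.51 and 2.55 in normal pancreas. Neither pair overlapped, and the differences were 0.71 ± 0.19 (adjusted p = 0.0202) and 0.72 ± 0.19 (adjusted p = 0.0158). A dimmer probe, placed on another chromosome, differed by 0.51 and 0.58. In the fit of single probes it passed in YFP- cells alone (adjusted p = 0.0678 and 0.0330). Uqcrfs1, the Rieske iron-sulfur protein, was higher in YFP- cells by 0.69 ± 0.15 (adjusted p = 0.00714). It differed by 0.43 ± 0.15 in YFP+ cells (adjusted p = 0.0950). The core proteins Uqcrc1 and Uqcrc2 did not pass in either population, with differences of 0.20 and 0.30 for Uqcrc1 and 0.20 and 0.26 for Uqcrc2.

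In complex IV, cytochrome c oxidase, 3 of 18 genes were higher in YFP+ (16.7%, against 6.02% of all genes) and 7 in YFP- cells (38.9%, against 8.02%). All were among the 12 ubiquitous subunits. Cox5a, which surrounds the catalytic core on the matrix side (its probe has no position in the file), read 3.28, 3.39, 3.27, 3.25 and 3.74 in tumor YFP+ and 2.73, 2.74 and 2.84 in normal YFP+. It read 3.29, 3.50, 3.40, 3.38 and 3.13 in tumor YFP- and 2.18, 2.59 and 2.62 in normal YFP-. Every tumor array was above every normal array. The differences were 0.62 ± 0.16 (adjusted p = 0.0207) and 0.87 ± 0.16 (adjusted p = 0.00186), or 1.53-fold and 1.83-fold. Among the 34 genes, Cox5a had the lowest adjusted p in YFP- cells.

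Cox5b, the zinc-binding subunit, read 2.83, 3.07, 2.96, 2.99 and 3.11 in tumor YFP+ and 2.44, 2.66 and 2.52 in normal YFP+, without overlap. It differed by 0.45 ± 0.13 in YFP+ (adjusted p = 0.0357) and 0.63 ± 0.13 in YFP- cells (adjusted p = 0.00422). Cox8a, the ubiquitous isoform of the smallest subunit, differed by 0.45 and 0.56 (adjusted p = 0.0304 and 0.00735). Over the settings tried, its YFP+ difference ran from 0.13 to 0.58, and the YFP+ call was lost in 12 of 21. Cox4i1, the ubiquitous isoform of subunit 4, differed by 0.51 ± 0.15 in YFP- cells (adjusted p = 0.0360) and 0.34 in YFP+ cells (adjusted p = 0.182).

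Ndufa4, first assigned to complex I and since known as a subunit of complex IV, went against the others without passing. It read 1.12, 1.43, 0.97, 1.42 and 1.74 in tumor YFP+ and 1.34, 1.60 and 1.62 in normal YFP+. The difference was -0.18 ± 0.23 in YFP+ and -0.11 ± 0.23 in YFP- cells (adjusted p = 0.722 and 0.769), with overlap in both. With array median scaling the YFP- value was 0.09. Of the 12 ubiquitous subunits it was the one below 0 as scaled here. With quantile normalization Cox7a2l was also below 0 in YFP+ cells, at -0.13.

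The 6 alternative isoforms of complex IV that were tested gave 0 calls in either population (in YFP+ cells 2 and in YFP- cells 1 at an unadjusted p under 0.05). Among all genes, 12.1% were called in YFP+ and 15.8% in YFP- cells, in either direction. Cox6b2, the testis isoform of subunit 6b, read -0.29, 0.45, -0.46, -0.64 and 0.07 in tumor YFP+ and 1.11, 0.39 and 0.73 in normal YFP+. It differed by -0.91 ± 0.36 in YFP+ and -0.83 ± 0.36 in YFP- cells (adjusted p = 0.123 and 0.133), and was called lower in YFP+ cells with array weights. Cox4i2, the lung isoform of subunit 4, differed by -0.09 and -1.06 (SE 0.62, adjusted p = 0.961 and 0.268). With quantile normalization the YFP+ value of Cox4i2 was 0.06, and with array weights it was called lower in YFP- cells. Ndufa4l2, a known target of hypoxia-inducible factors, differed by 0.98 ± 0.37 in YFP+ and 0.76 ± 0.37 in YFP- cells (adjusted p = 0.113 and 0.186).

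The muscle isoforms of complex IV set 1 array apart. Cox6a2, Cox7a1 and Cox8b replace the ubiquitous subunits in heart and skeletal muscle. On the tumor YFP- array of mouse 23677 Cox6a2 read 4.13, Cox7a1 2.05 and Cox8b 2.99. Over the other 15 arrays Cox6a2 lay between -1.27 and 0.12, Cox7a1 between -1.22 and 0.65 and Cox8b between -3.90 and -0.86. Their differences in YFP- cells were 1.08 ± 0.88, 0.97 ± 0.48 and 1.03 ± 1.07 (adjusted p = 0.421, 0.188 and 0.536). Without that array they were 0.13, 0.56 and -0.07. A list of 12 skeletal muscle genes was written after these values were seen, and 9 of them were measured. Their mean was 3.60 on this array and -2.39 to -1.35 on the other 15, and 8 of the 9 were highest on it, Acta1 at 5.46 among them. Mylpf was the exception. The part of muscle RNA in the other values of this array was not tested. Without the array, 35 genes of the chain were higher in tumor YFP- cells and the median difference was 0.43.

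**Figure D3:**
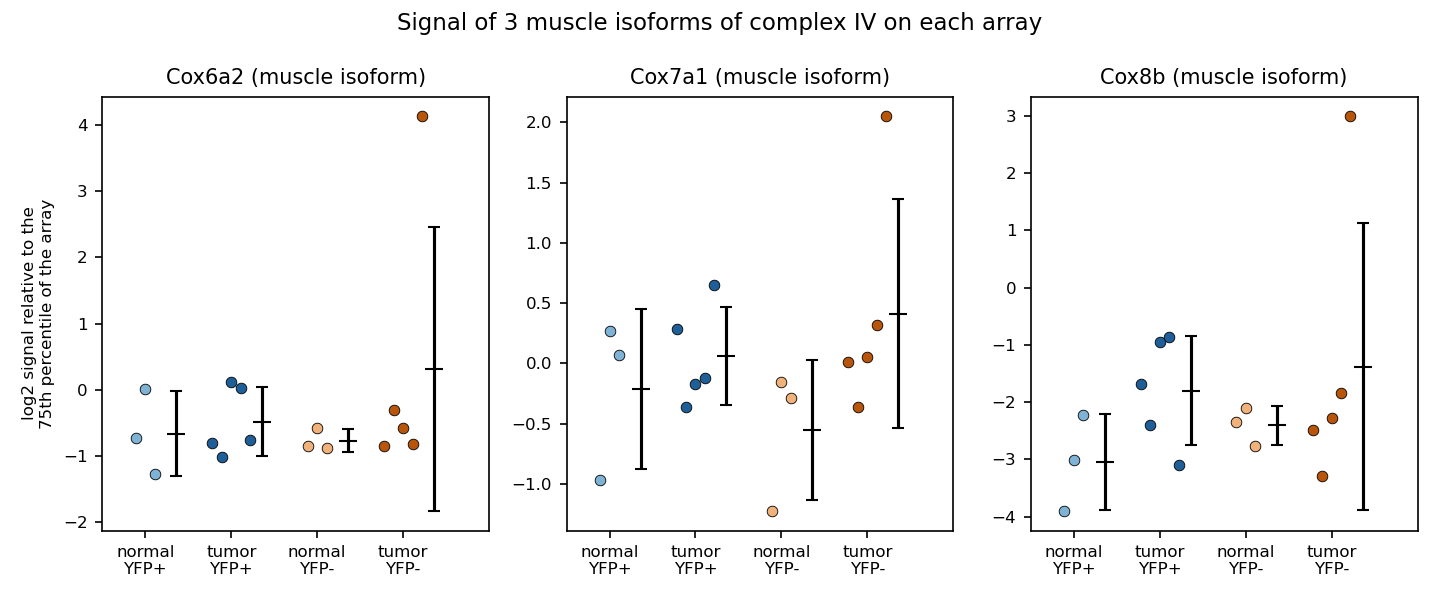
Relative log2 signal of the muscle isoforms Cox6a2, Cox7a1 and Cox8b (y axis, log2 units) by group (x axis). Each point is 1 array and the bar is the mean with its SD; the tumor YFP- array of mouse 23677 stands at 4.13, 2.05 and 2.99.

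Complex V, the ATP synthase, had 2 of 17 genes higher in YFP+ (11.8%, against 6.02% of all genes) and 9 in YFP- cells (52.9%, against 8.02%). Atp5d, the delta subunit of the central stalk (probe at chr10:79608230-79608289, mm9), read 2.84, 3.0, 2.96, 2.88 and 3.16 in tumor YFP+ and 1.99, 2.58 and 2.30 in normal YFP+. It read 2.54, 3.0, 2.46, 2.91 and 2.56 in tumor YFP- and 1.86, 1.91 and 1.62 in normal YFP-. Tumor and normal arrays did not overlap in either population. The differences were 0.68 ± 0.18 (adjusted p = 0.0206) and 0.89 ± 0.18 (adjusted p = 0.00314), or 1.60-fold and 1.86-fold. Atp5b, the catalytic beta subunit, differed by 0.65 ± 0.15 in YFP- cells (adjusted p = 0.00835) and 0.37 ± 0.15 in YFP+ cells (adjusted p = 0.141). Atp5a1, the alpha subunit beside it, differed by 0.15 in YFP+ and 0.43 in YFP- cells (adjusted p = 0.708 and 0.120), and its YFP+ value was -0.05 with quantile normalization.

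Subunit c, whose ring turns with the proton flow, is encoded by Atp5g1, Atp5g2 and Atp5g3, which give the same mature protein. Atp5g1 (probe at chr11:95934315-95934374, mm9) read 4.64, 5.03, 4.83, 4.73 and 4.95 in tumor YFP+ and 4.17, 4.39 and 4.20 in normal YFP+. In YFP- cells it read 4.76, 4.96, 4.99, 4.86 and 4.82 in tumor and 4.21, 4.26 and 4.23 in normal pancreas. The groups stood apart, and the differences were 0.58 ± 0.14 (adjusted p = 0.0106) and 0.64 ± 0.14 (adjusted p = 0.00467). Atp5g3 was higher in YFP- cells by 0.61 ± 0.15 (adjusted p = 0.0130). The brightest probe of Atp5g2 did not pass, at 0.27 and 0.31 (adjusted p = 0.204 and 0.108). Its dimmer probe differed by 0.26 and 0.47 and passed in YFP- cells in the fit of single probes (adjusted p = 0.347 and 0.0478). Its YFP+ value was -0.04 with quantile normalization.

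The peripheral stalk holds the catalytic head still. Of its 4 genes, 0 were past the threshold in YFP+ (1 at an unadjusted p under 0.05) and 3 in YFP- cells. Among all genes, 12.1% passed in YFP+ and 15.8% in YFP- cells, in either direction. Atp5o, the subunit at the top of the stalk, read 1.58, 2.53, 2.33, 2.11 and 1.95 in tumor YFP- and 1.32, 1.39 and 1.12 in normal YFP-. The groups overlapped nowhere, and the difference was 0.82 ± 0.22 (adjusted p = 0.0190). Atp5pb, subunit b, differed by 0.79 ± 0.23 in YFP- cells (adjusted p = 0.0327), and Atp5j, subunit F6, by 0.69 ± 0.19 (adjusted p = 0.0261). In YFP+ cells these 3 differed by 0.39, 0.32 and 0.50 without passing. A dimmer probe of Atp5pb, on the gene's own chromosome at chr3:105745782-105745841 (mm9), differed by 0.53 in YFP+ and 0.73 in YFP- cells and passed in both in the fit of single probes (adjusted p = 0.0421 and 0.00561). The probes for Atp5o and Atp5pb are among the 10 placed on another chromosome.

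**Figure D4:**
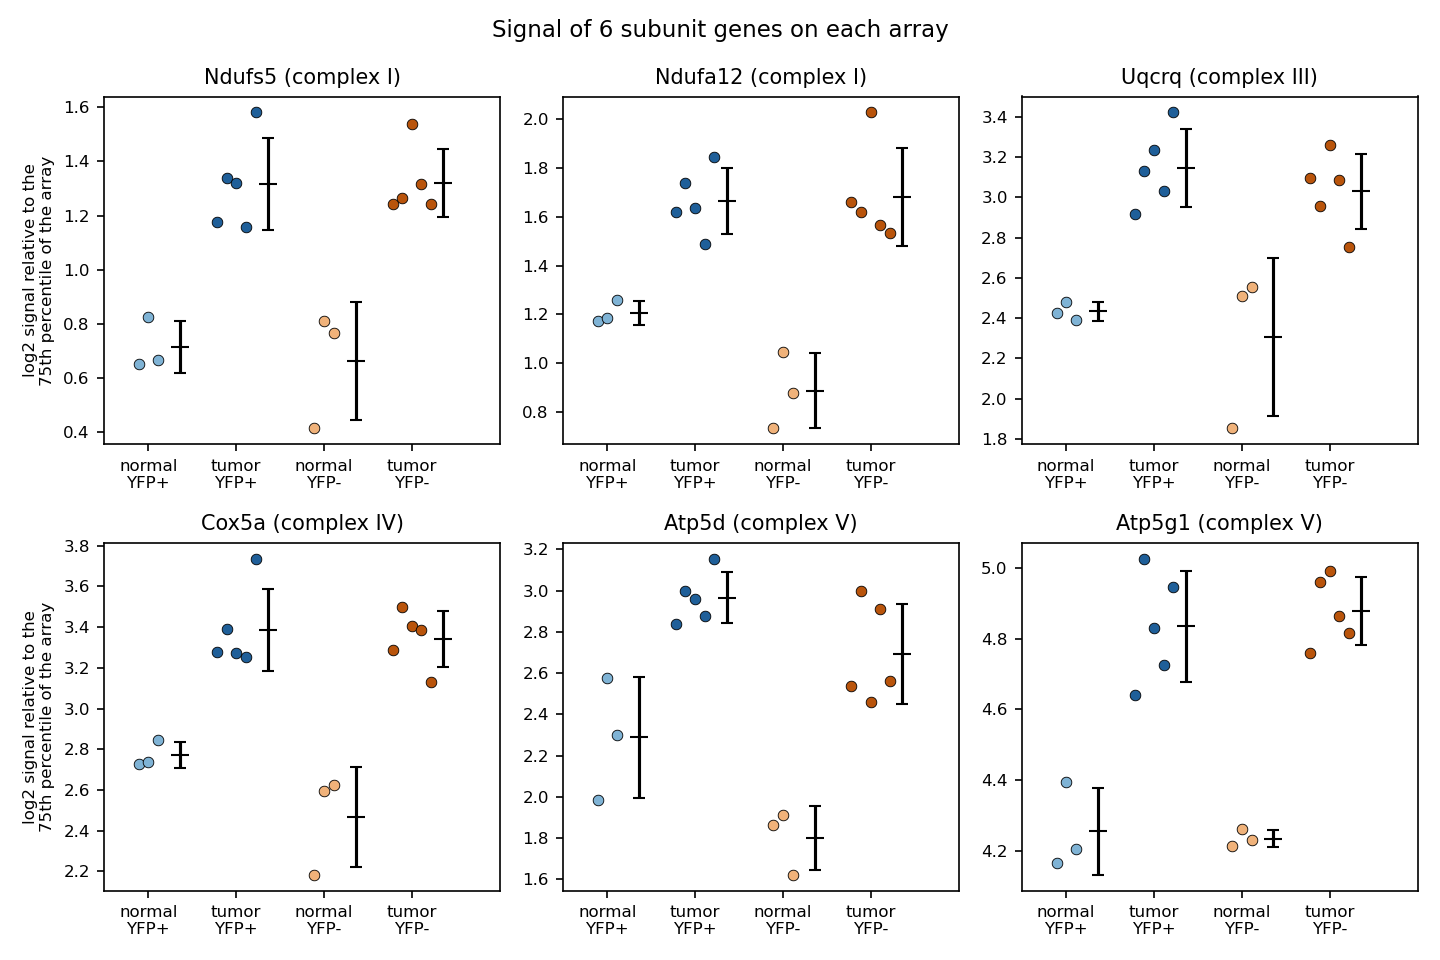
Relative log2 signal of 6 subunit genes (y axis, log2 units) by group (x axis), with 1 point for each array and the mean with its SD beside the points. In each panel the tumor arrays sit above the normal arrays of the same population, for Cox5a 3.25 to 3.74 against 2.73 to 2.84 in YFP+.

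Assembly factors build the complexes and do not stay in them. Of the 10 tested, 1 (Sdhaf2) was past the threshold in either population, where 12.1% of all genes passed in YFP+ and 15.8% in YFP- cells. The medians were 0.14 in YFP+ and -0.04 in YFP- cells, where those of the 81 subunits were 0.32 and 0.46. Assembly factors were dimmer, with group means of the array median from -1.58 to -1.24, against 2.40 to 2.95 for subunits. The median standard error of these differences was 0.30 for assembly factors and 0.17 for subunits. The 7 factors of complex I gave 0 calls and had 0 genes at an unadjusted p under 0.05 in either population. Ndufaf7, a methyltransferase that modifies a core subunit, read -0.03, 0.15, 0.06, -0.22 and -0.14 in tumor YFP+ and 0.62, 0.33 and 0.72 in normal YFP+, with a difference of -0.59 ± 0.31 (adjusted p = 0.278). Ndufaf1 differed by -0.14 and -0.08, and Ndufaf2 by 0.42 and -0.0044. The YFP- values of both turned with quantile normalization, to 0.04 and 0.21. Subunits and assembly factors were not tested against each other.

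Between YFP+ and YFP- macrophages of the same tissue, no gene of the chain passed limma's adjusted threshold. In tumor 0 of 93 passed (2.4% of all genes did, and 2 of the 93 had an unadjusted p under 0.05, as 10.3% of all genes had), and the median difference, YFP+ minus YFP-, was -0.0026. In normal pancreas 0 of 93 passed (0.0206% of all genes did, and 3 of the 93 had an unadjusted p under 0.05, as 7.64% of all genes had). The median was 0.08 (all genes -0.10), with 69 of 93 above 0 (40% of all genes), and with array weights 2 genes passed. Without overlap between the groups, 13 of the 93 were higher in normal YFP+ and 0 lower (1551 and 1662 of all 24307 genes). In tumor 0 were higher in YFP+ and 1 lower (377 and 682 of all genes). The median standard error was 0.15 and 0.19. Ndufaf3, an assembly factor of complex I, had the lowest p in both. It read -0.58, -0.30, -0.15, -0.25 and 0.17 in tumor YFP+ and -0.73, -0.49, -0.55, -0.81 and -1.0 in tumor YFP-, and -0.32, -0.24 and -0.57 in normal YFP+ and -1.42, -1.36 and -0.56 in normal YFP-. The differences were 0.50 ± 0.19 (adjusted p = 0.325) and 0.73 ± 0.25 (adjusted p = 0.372).

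The change of the YFP difference between the tissues, tested as an interaction, passed for 0 of 93 genes (0.0987% of all genes did, and 0 of the 93 had an unadjusted p under 0.05, as 5.97% of all genes had). Its median was -0.10. The 23 genes past the threshold in YFP- cells alone are thus not shown to differ between the populations. Ndufs4 had the lowest p, with a value of -0.50 ± 0.25 (adjusted p = 0.855).

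Other genes of mitochondrial energy supply were read from lists, whose shares stand beside the 6.02% of all genes higher in YFP+ and 8.02% in YFP- cells. Among electron carriers and their makers, 3 of 20 were higher in tumor in each population (15%). Cycs, cytochrome c, which carries electrons from complex III to complex IV, differed by 0.85 ± 0.18 in YFP+ and 1.25 ± 0.18 in YFP- cells (adjusted p = 0.00522 and 0.000245). Coq10b, a coenzyme Q binding protein, differed by 1.41 and 2.43. Among 24 genes of the tricarboxylic acid cycle and its entry, 2 were higher in YFP+ (8.33%) and 5 in YFP- cells (20.8%), so the YFP+ share was near that of all genes. Mdh2, mitochondrial malate dehydrogenase, differed by 0.76 ± 0.14 and 1.02 ± 0.14 (adjusted p = 0.00253 and 0.000232). Acod1, which makes itaconate from a cycle intermediate, is also counted on this list and differed by 3.10 and 3.59.

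Of 38 further assembly factors of the chain, 3 were higher (7.89%) and 1 lower in YFP+ cells, and 4 were higher (10.5%) and 1 lower in YFP- cells, shares near those of all genes. Cox17, a copper chaperone for complex IV, differed by 1.05 ± 0.17 and 1.20 ± 0.17 (adjusted p = 0.000948 and 0.000286). Atpaf1, a chaperone of the ATP synthase head, was lower in YFP- cells by -1.33 ± 0.35 (adjusted p = 0.0190). Of 11 carriers, uncouplers and inhibitors, 1 was higher in YFP+ (9.09%) and 5 in YFP- cells (45.5%). Slc25a5, an ATP/ADP carrier, differed by 0.71 ± 0.16 in YFP- cells (adjusted p = 0.00692). Of 18 regulators of mitochondrial biogenesis, 0 were higher and 1 lower in YFP+ cells (5.56%, near the 6.06% of all genes called lower), and 0 passed in YFP- cells (2 lower at an unadjusted p under 0.05). The lower one was Polg, the mitochondrial DNA polymerase, at -0.98 ± 0.23 (adjusted p = 0.0119).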

How the data were processed

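RNA of each sorted sample was amplified (Sigma-WTA2), labelled with Cy5 and hybridised to 1 array in 1 colour, per the labels' protocols. The deposited intensities are processed signals of Agilent Feature Extraction 11.5.1.1, background-subtracted and detrended within each array, per the file headers. Probes were named through RefSeq accessions (28330), symbols (2204), synonyms (174) or the files' own names (8721). The log2 processed signal, minus the array's 75th percentile, was averaged over spots of a probe. Probes well above background on at least 3 of 16 arrays were kept (30602), control and outlier spots and probes with a missing value left out, and the brightest probe taken per gene. limma 3.58.1 in R 4.3.3 fitted 4 group means and an interaction to 24307 genes, two-sided, with Benjamini-Hochberg adjustment at 0.05. The deposited table of log2 values, an alternative, has the same sorted values on every array within 0.0069 and a column median of 9.02481; the authors' method for it is not given in the sources used here. The number of arrays limits the precision.

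The members and lists were chosen with earlier results of these data known. Genes were named by a rule: those past the threshold, up to 12 by size in each direction, the largest difference in each complex, and fixed members by role. Other lists gave at most 4 genes past the threshold in each comparison. Scripts were tested on simulated data. A few single genes are not reported here.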

Additional observations from a re-analysis of the deposited data

Results flagged for a closer look

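In the groups of 5 arrays, a value counted as far from the others when its gap to the nearest array was above 0.71 of the group's range. This was met in 15 of 198 groups examined, and chance gives about 1 in 20. The muscle isoforms were highest on the tumor YFP- array of mouse 23677, with Cox6a2 at 4.13 (other arrays of the group -0.85 to -0.30), Cox7a1 at 2.05 (-0.37 to 0.32) and Cox8b at 2.99 (-3.28 to -1.85). Other genes of the chain were lowest on that array, namely Cox6b1 at 3.99 (4.24 to 4.30), Ndufs3 at 2.61 (2.93 to 3.04) and Sdhc at 1.01 (1.35 to 1.39).

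On the tumor YFP+ array of the same mouse number, Cox5a read 3.74 (other arrays 3.25 to 3.39), Atp5j2 3.48 (3.14 to 3.21) and Ndufa11 2.40 (1.82 to 1.98). In tumor YFP+, Atp5g2 was lowest in mouse 23550 at 5.07 (5.21 to 5.26) and Uqcrc1 highest in mouse 23548 at 3.72 (3.30 to 3.42). In tumor YFP-, mouse 23550 was highest for Ndufa12 at 2.03 (1.53 to 1.66), Ndufs5 at 1.54 (1.24 to 1.31) and Ndufab1 at -0.58 (-1.38 to -1.17). Ndufs6 was highest in mouse 23548 at 4.83 (4.41 to 4.50).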

How the results depend on the processing

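The median differences between tumor and normal pancreas were above 0 under all alternatives, from 0.18 to 0.45 in YFP+ and from 0.31 to 0.62 in YFP- cells, where 0.62 came with array median scaling. The 11 calls in YFP+ cells became 4 with array median scaling, 2 with quantile normalization, 2 with the deposited normalized values, 6 with only the groups compared in the fit and 23 with array weights, 1 of the 23 lower. Leaving out 1 mouse number gave 1 to 8. The 34 calls in YFP- cells became 22 with normexp background correction, 22 with quantile normalization, 5 with only the groups compared, 56 with array weights (1 lower), and 19 without the normal YFP- array of mouse 23912, a setting chosen after seeing the data. Leaving out 1 mouse number gave 11 to 33. With array weights 2 genes differed by YFP in normal pancreas, where 0 did before. Cox5a, Atp5d, Atp5g1 and Ndufa12 were called in YFP- cells under every setting. None of the 11 calls in YFP+ cells held under all 21 settings. Ndufs5 held in 19, Ndufv3 and Atp5g1 in 17, and Uqcrq, Atp5d and Cox5a in 16. Ndufa1 and Cox5b held in 10, Ndufc1 and Cox8a in 9, and Sdhaf2 in 8. The cause of the shifts with scaling was not tested.

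The mouse number as a replicate block left 11 and 34 calls and changed no other call. The correlation of deviations between arrays of the same number ran from -0.29 to 0.31. It was above the highest correlation with another number for 23912, 23916 and 23550, and below it for the other numbers. With so few arrays in a group, these values cannot show whether the samples are paired.

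Signs turned mostly for genes near 0. With the mean of all kept probes the turned values were Ndufv3 -0.039 in YFP+ cells, and Ndufv3 -0.085 in YFP- cells. With quantile normalization the turned values were Atp5a1 -0.047, Atp5g2 -0.041, Cox4i2 0.056, Cox7a2l -0.13, Ndufs7 -0.16, Ndufv2 -0.069 and Sdhaf4 0.037 in YFP+ cells, and Ndufaf1 0.036, Ndufaf2 0.21 and Ndufs7 -0.085 in YFP- cells. With the deposited values the turned values were Atp5a1 -0.049, Atp5g2 -0.040, Cox4i2 0.053, Cox7a2l -0.13, Ndufs7 -0.16, Ndufv2 -0.072 and Sdhaf4 0.033 in YFP+ cells, and Ndufaf1 0.039, Ndufaf2 0.22 and Ndufs7 -0.083 in YFP- cells. Under array median scaling the turned values were Cox4i2 0.035 and Sdhaf4 0.071 in YFP+ cells, and Ndufa4 0.086, Ndufaf1 0.12 and Ndufaf2 0.19 in YFP- cells. With the slide as a block the turned values were Ndufaf1 0.015 and Sdhaf4 0.045 in YFP+ cells, and Sdhaf1 -0.0057 in YFP- cells. With normexp the turned values were Ndufaf1 0.045, Ndufaf2 0.12 and Ndufaf6 0.019 in YFP- cells. With array weights the turned values were Ndufaf2 0.054, Ndufaf4 -0.047, Ndufaf6 0.065 and Ndufs7 -0.054 in YFP- cells. Without the tumor YFP- array of mouse 23677, also chosen after seeing the data, the turned values were Cox8b -0.067, Ndufa4 0.048, Ndufaf1 0.017, Ndufaf2 0.20 and Ndufaf7 0.040 in YFP- cells. Without the normal YFP- array of mouse 23912 the turned values were Ndufaf2 0.43 and Ndufs7 -0.093 in YFP- cells.

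Leaving out 1 mouse number turned some signs in YFP+ cells, where the ranges were -0.30 to 0.12 for Cox4i2, -0.12 to 0.52 for Cox6a2, -0.11 to 0.51 for Cox7a1, -0.024 to 0.34 for Ndufab1, -0.060 to 0.33 for Ndufaf6, -0.089 to 0.20 for Sdhaf1 and -0.40 to 0.25 for Sdhaf4. In YFP- cells they were -0.067 to 1.5 for Cox8b, -0.25 to 0.048 for Ndufa4, -0.28 to 0.040 for Ndufaf1, -0.50 to 0.43 for Ndufaf2, -0.14 to 0.25 for Ndufaf4, -0.38 to 0.040 for Ndufaf7, -0.093 to 0.15 for Ndufs7 and -0.072 to 0.17 for Sdhaf1.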
